A study of Mus musculus with 11 samples.

Results

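The respiratory chain subunits are the proteins of the 5 complexes of oxidative phosphorylation in the mitochondrial inner membrane. Members were chosen by gene symbol: protein-coding genes of the count table whose GENCODE M21 symbol begins with Ndufa, Ndufb, Ndufc, Ndufs, Ndufv, Sdh, Uqcr, Cox4, Cox5, Cox6, Cox7, Cox8, Atp5, mt-Nd, mt-Co or mt-Atp, and mt-Cytb. This gave 111 of 54232 genes: 13 subunits encoded by the mitochondrial genome, 86 encoded in the nucleus, and 12 assembly factors (Ndufaf and Sdhaf genes), which share the prefix but are not part of the finished complexes and are kept apart below. Cyc1, a complex III subunit, falls outside the symbol rule. Ndufa4 and Ndufa4l2 were counted with complex IV. Atp5o was counted under both of its gene entries, ENSMUSG00000022956 and ENSMUSG00000116933. Exons of the former and of Donson cover 100% of the exonic bases of ENSMUSG00000116933 on the same strand. Atp5s and Cox7a2l were counted as subunits by their symbols.

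RNA was measured by bulk sequencing in 11 orthotopic pancreatic tumours from female C57BL/6 hosts, 6 in PKN2 knockout hosts (KO, replicates A to F) and 5 in PKN2 wild-type hosts (WT, replicates A to E). By the study's methods all hosts carried 1 copy of the tamoxifen-inducible RosaCreERT recombinase and received tamoxifen; KO hosts were PKN2 fl/fl and WT hosts PKN2 +/+. The Rosa promoter is active in most tissues, so the deletion was not limited to fibroblasts of the tumour. Every host was given 1000 TB32048 cells, a mouse pancreatic carcinoma line with intact Pkn2, so the carcinoma cells of both groups were wild type and a whole tumour mixes them with host cells. Total counts were 22791627 to 28017673 among KO tumours and 16294128 to 31121422 among WT tumours. Pkn2 itself stood at 96.6 ± 9.34 CPM among KO tumours (SD, n = 6) against 96.7 ± 34.6 CPM among WT tumours (SD, n = 5). No difference was detectable in the whole tumour (adjusted p = 0.996 in edgeR). The implanted cells keep the gene, and their part in these Pkn2 counts was not tested. Coordinates are 1-based on GRCm38. CPM denotes counts scaled to a common library total with TMM factors, and fold changes are KO relative to WT throughout.

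Complexes I to IV pass electrons from NADH and succinate to oxygen, complexes I, III and IV pump protons, and complex V uses the proton gradient to make ATP. Complexes I, III, IV and V contain subunits from both genomes: the mitochondrial genome supplies the hydrophobic centre, and the nucleus supplies the remaining catalytic subunits and many small accessory subunits. Complex II is wholly nuclear encoded and is also an enzyme of the tricarboxylic acid cycle.

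Many nuclear subunit genes are known targets of the factors NRF1, ETS family members such as GABP, YY1 and the ERR receptors. A RefSeq promoter (GRCm38.p6, 300 bases around the start) was matched by symbol for 78 of the 98 nuclear members. The letters GCGCATGC (NRF1) on either strand were in 12 of them (15.4%), compared with 5.44% of tested protein-coding genes with a promoter and 2.71% of all 32851 promoters. AAGATGGC (YY1) was in 10 (12.8%, 4.79% and 2.75%). The share for the ETS family depended on the letters used: CCGGAAG was in 21 (26.9%, above 18.4% of tested genes), whereas the longer CCGGAAGT, searched first, was in 5 (6.41%, below 8.34%). TCAAGGTCA (ERR) was in 2 (2.56%, 0.298% and 0.423%). The median log2 fold change of members with the NRF1 letters was -0.71 and that of members without was -0.74. These medians were -0.97 and -0.73 for the YY1 letters, -0.82 and -0.71 for CCGGAAG, -0.83 and -0.73 for CCGGAAGT and -0.65 and -0.74 for the ERR letters, as a description. Promoters are printed for subunits that come up below, short Uqcr11 and Cox6a1 and the longer core subunits Uqcrc1 and Sdha, with NRF1 letters and CCGGAAG in capitals, on either strand. In a run of 10 capitals the NRF1 letters occur on both strands and overlap. A match is a description of the letters and not a site of binding.
Uqcr11, chr10:80406772-80407071, minus strand: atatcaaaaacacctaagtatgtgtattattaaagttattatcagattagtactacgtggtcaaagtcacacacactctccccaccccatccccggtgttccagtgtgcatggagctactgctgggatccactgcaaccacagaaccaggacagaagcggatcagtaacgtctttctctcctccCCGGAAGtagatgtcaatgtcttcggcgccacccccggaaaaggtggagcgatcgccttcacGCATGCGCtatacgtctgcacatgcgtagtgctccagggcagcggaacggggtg
Cox6a1, chr5:115348909-115349208, minus strand: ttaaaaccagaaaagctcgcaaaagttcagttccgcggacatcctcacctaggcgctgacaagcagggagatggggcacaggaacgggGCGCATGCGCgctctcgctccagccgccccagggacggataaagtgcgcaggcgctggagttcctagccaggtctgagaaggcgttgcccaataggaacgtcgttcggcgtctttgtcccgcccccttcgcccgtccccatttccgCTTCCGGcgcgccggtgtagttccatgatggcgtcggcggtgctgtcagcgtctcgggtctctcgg
Uqcrc1, chr9:108936398-108936697, plus strand: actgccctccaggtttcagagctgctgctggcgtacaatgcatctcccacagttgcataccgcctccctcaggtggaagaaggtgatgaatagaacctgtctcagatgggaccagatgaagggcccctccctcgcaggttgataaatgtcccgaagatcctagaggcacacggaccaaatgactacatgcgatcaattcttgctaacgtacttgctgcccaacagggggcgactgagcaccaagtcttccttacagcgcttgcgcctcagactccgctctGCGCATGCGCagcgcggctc
Sdha, chr13:74350191-74350490, minus strand: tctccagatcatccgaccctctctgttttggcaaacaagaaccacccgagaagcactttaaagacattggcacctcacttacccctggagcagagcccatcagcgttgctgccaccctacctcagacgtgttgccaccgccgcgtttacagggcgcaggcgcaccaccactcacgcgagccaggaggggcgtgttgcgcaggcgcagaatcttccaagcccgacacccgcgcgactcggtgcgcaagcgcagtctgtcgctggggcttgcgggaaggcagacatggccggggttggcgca
Uqcr11, Cox6a1 and Uqcrc1 hold the NRF1 letters and Sdha holds no letters of the searched kinds.

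Nuclear subunit transcripts were lower on average in KO tumours, and the higher WT levels were those of 3 of the 5 WT tumours. Of 86 nuclear subunits, 82 passed the expression filter and 78 of these had a negative log2 fold change, with a median of -0.75 against -0.026 over all 16536 genes tested. No subunit reached an adjusted p under 0.05 with edgeR, where 3 of all genes did (0.0181%), and the smallest adjusted p of a subunit was 0.0786. At an unadjusted p under 0.05, 56 of 82 were lower and 0 were higher, where 15.5% and 8.57% of all genes were. DESeq2 on the same counts called 26 nuclear subunits lower at an adjusted p under 0.05. It called 3.05% of the 29531 genes to which it gave a p lower, and 850 of the 16536 genes tested with edgeR.

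Tumour by tumour, 75, 76 and 72 of the 82 nuclear subunits were above all 6 KO tumours in WT tumours A, B and C, and only 16 and 5 in D and E. The median subunit was 1.92, 2.97 and 1.80 times the KO mean in WT A, B and C, and 0.926 and 0.850 times in D and E. In D and E, 32 and 41 subunits were below all KO tumours. Over all tested protein-coding genes, 29.7%, 32.8% and 27.3% were above all KO tumours in WT A, B and C, and 25.1% and 21.8% in D and E, where 25.2% and 18.9% were below them. WT B was the highest of the 11 tumours for 72 of the 82 subunits, and it was also the shallowest library. Groups without overlap were found for 5 subunits (Ndufa9, Ndufb2, Ndufb8, Ndufv1 and Uqcrfs1), all lower in KO, where 2.01% of all genes were.

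**Figure D1:**
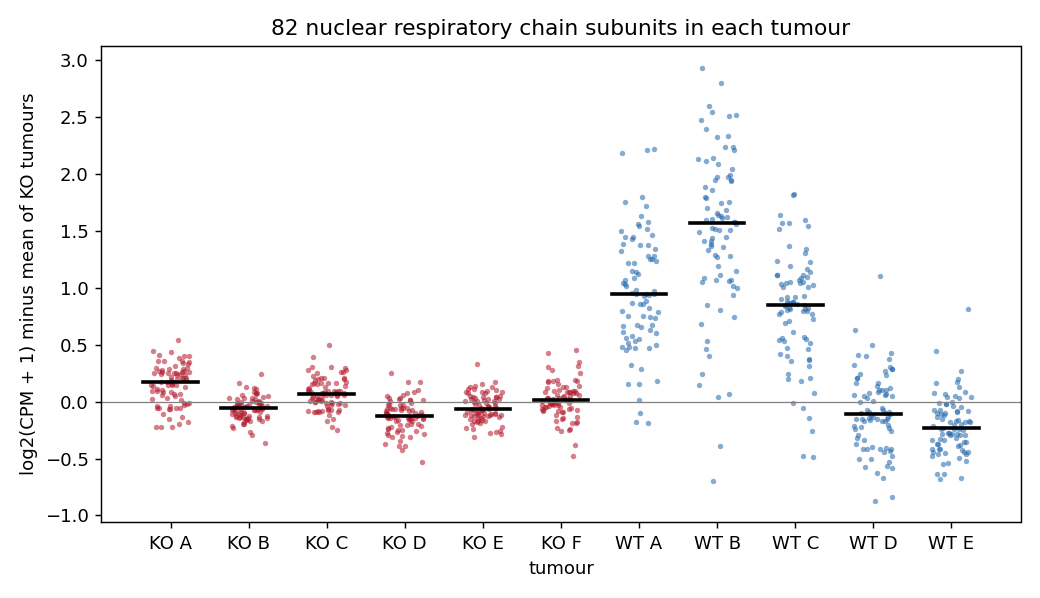
Each point is 1 of the 82 tested nuclear subunits in 1 tumour, as log2(CPM + 1) minus the mean of that subunit over the KO tumours; bars are medians, red is KO and blue is WT. The medians of WT A, B and C lie at 0.94, 1.57 and 0.85, and those of WT D and E at -0.11 and -0.23, against -0.12 to 0.17 in the KO tumours.

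With WT A, B and C left out, the median log2 fold change of nuclear subunits turned to 0.19, with 4 lower and 17 higher at an unadjusted p under 0.05, where 9.01% and 8.21% of all genes were. Without WT E instead, 45 nuclear subunits were called lower at an adjusted p under 0.05 (7.46% of all genes), and without WT D 30 were (3.87%). The same 3 tumours had the most ribosomal RNA reads, the share of Gm42418, mt-Rnr1 and mt-Rnr2 being 1.31%, 6.39% and 1.40% of counts in A, B and C, 0.765% and 0.241% in D and E, and 0.308% to 0.739% in KO tumours. With this share as a covariate the median of nuclear subunits was -0.13. Many short subunit genes have processed copies elsewhere in the genome, and reads that align equally well to a copy were not counted. The labels give no batch, and whether these 3 libraries differ in RNA quality or in biology was not tested.

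Complex I accepts electrons from NADH. Its 7 nuclear core subunits, which carry the flavin and iron-sulphur clusters, had a median log2 fold change of -0.60, and the 29 accessory subunits one of -0.80. Of the 36, 27 were lower at an unadjusted p under 0.05, where 15.5% of all genes were. Ndufb2 (ENSMUSG00000002416, chromosome 6, 39592574 to 39603382, plus strand) stood at 3.08, 3.55, 3.34, 3.82, 3.41, 2.58 CPM in KO tumours A to F and at 4.95, 9.76, 5.36, 8.22, 6.53 CPM in WT tumours A to E. Ndufb2, an accessory subunit, was lower in all KO tumours than in any WT tumour and had the smallest p of the subunits, with a log2 fold change estimated at -1.08 ± 0.24 (SE; adjusted p = 0.0786 in edgeR). Its level was low, with an annotated principal transcript of 4371 bases, and without WT A, B and C its log2 fold change was -1.16 ± 0.21.

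Ndufb9 (ENSMUSG00000022354, chromosome 15, 58933756 to 58939488, plus strand) stood at 24.4, 30.6, 31.2, 23.8, 20.4, 24.8 CPM in KO tumours A to F and at 122, 124, 92.9, 26.6, 25.6 CPM in WT tumours A to E. Ndufb9, an accessory subunit, was the lowest of complex I, with a log2 fold change estimated at -1.60 ± 0.39 (SE; adjusted p = 0.0852 in edgeR), and in WT D and E it was within the KO range. Another annotated gene covers 19.5% of its exonic bases on the same strand, so its count is less certain. Ndufv1 (ENSMUSG00000037916, chromosome 19, 4007384 to 4012806, minus strand) stood at 122, 117, 119.7, 122, 121, 123 CPM in KO tumours A to F and at 193, 195, 159, 157, 137 CPM in WT tumours A to E. Ndufv1 binds NADH, and its 2 groups did not overlap, with a log2 fold change estimated at -0.48 ± 0.13 (SE; adjusted p = 0.0928 in edgeR).

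Ndufs1 (ENSMUSG00000025968, chromosome 1, 63143596 to 63176833, minus strand) stood at 71.99, 80.7, 78.6, 84.6, 91.2, 90.4 CPM in KO tumours A to F and at 72.4, 50.7, 68.9, 102, 80.01 CPM in WT tumours A to E. Ndufs1, the largest iron-sulphur subunit, was the nuclear complex I subunit with the highest log2 fold change, at 0.15 ± 0.17 (SE; edgeR, adjusted p = 0.607), and its groups overlapped. Among other core subunits, Ndufs3, Ndufs8, Ndufv2 and Ndufs7 gave -0.83, -0.71, -0.64 and -0.60 on the log2 scale.

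Complex II oxidises succinate. Sdha, the flavin-binding subunit, was at 216 ± 13.8 CPM among KO tumours (SD, n = 6) against 199 ± 46.2 CPM among WT tumours (SD, n = 5), with a log2 fold change estimated at 0.12 ± 0.16 (SE; adjusted p = 0.668 in edgeR). The iron-sulphur subunit Sdhb and the membrane anchors Sdhc and Sdhd had log2 fold changes of -0.40, -0.56 and -0.44, of which Sdhc and Sdhd had an unadjusted p under 0.05 (0.0230 and 0.0243). The median of the 4 was -0.42.

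Complex III passes electrons from ubiquinol to cytochrome c. Uqcrfs1 (ENSMUSG00000038462, chromosome 13, 30540308 to 30545362, minus strand) stood at 95.8, 88.1, 93.4, 83.98, 90.6, 89.5 CPM in KO tumours A to F and at 156, 207, 132, 122, 98.9 CPM in WT tumours A to E. Uqcrfs1, the Rieske iron-sulphur protein, did not overlap between the groups and had a log2 fold change estimated at -0.66 ± 0.17 (SE; adjusted p = 0.0906 in edgeR). Uqcrb, a small ubiquinone-binding subunit, ranged over 69.2 (lowest), 76.1 (median) and 91.1 CPM (highest) in KO tumours and stood at 171, 304, 199, 102, 80.2 CPM in WT tumours A to E, so that only WT E fell within the KO range. Its log2 fold change was -1.15 ± 0.28 (SE; edgeR, adjusted p = 0.0850). The core proteins Uqcrc1 and Uqcrc2 were at -0.14 and 0.053, whereas short Uqcr11, whose promoter is printed above beside that of Uqcrc1, was at -0.78. Of the 8 nuclear subunits, 6 were lower at an unadjusted p under 0.05 (15.5% of all genes), with a median of -0.89.

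Complex IV, cytochrome c oxidase, had the lowest median of the complexes over its nuclear subunits, -0.99, and all 17 tested had a negative log2 fold change. Cox4i1 (ENSMUSG00000031818, chromosome 8, 120668222 to 120674207, plus strand) stood at 474, 411, 425, 451, 469, 447 CPM in KO tumours A to F and at 1053, 1958, 968, 396, 364 CPM in WT tumours A to E. Cox4i1, the ubiquitous form of subunit 4, was below every KO tumour in WT D and E, far above them in the other WT tumours, and had a log2 fold change estimated at -1.09 ± 0.37 (SE; adjusted p = 0.117 in edgeR). Cox5a and Cox5b were at -0.95 and -0.55, Cox7c at -1.39 (unadjusted p = 0.00242) and Cox6a1 at -1.08.

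Tissue-restricted forms of complex IV subunits were below the common form in every tumour. Per base of transcript, the muscle form Cox6a2 reached 0.0779 to 0.323% of Cox6a1 among KO tumours against 0.126 to 0.924% in WT tumours, the highest in WT A. At these levels a few counts decide the ratio. The lung form Cox4i2 reached at most 0.659% of Cox4i1, and the testis form Cox6b2 at most 3.52% of Cox6b1. Cox7a1, the muscle and heart form, had the lowest log2 fold change of all members, -1.88 ± 0.64 (SE; edgeR, adjusted p = 0.119), at 1.65, 1.23, 1.81, 0.854, 1.71, 1.45 CPM in KO A to F and 5.34, 15.9, 4.03, 0.822, 0.975 CPM in WT tumours A to E. Per base of transcript it was 2.26 to 3.65% of Cox7a2 among KO tumours and 1.80 to 7.30% among WT tumours. The summed level of 7 skeletal muscle markers was 2.32 to 6.62 CPM among KO tumours, 210.3 in WT A and 1.84 to 8.06 in the other WT tumours. Its part in these values was not tested. Ndufa4l2, a relative of Ndufa4 known to respond to low oxygen, was at -1.54 and Ndufa4 at -1.21. Cox7b2, Cox8b and Cox8c did not pass the filter.

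Complex V makes ATP. The catalytic head subunits Atp5a1 and Atp5b had log2 fold changes of 0.040 ± 0.15 and -0.018 ± 0.18 (SE; edgeR, adjusted p = 0.893 and 0.962), and Atp5c1, the central stalk, -0.40. Atp5mpl (ENSMUSG00000021290, chromosome 12, 111961375 to 111966977, minus strand) stood at 61.9, 52.9, 67.2, 48.98, 47.9, 48.8 CPM in KO tumours A to F and at 256, 421, 171, 58.2, 41.7 CPM in WT tumours A to E. The small subunit Atp5mpl had the lowest log2 fold change of complex V, -1.79 ± 0.47 (SE; edgeR, adjusted p = 0.0907), and WT D and E lay within or below the KO range. Atp5e, the epsilon subunit of the stalk, was at -1.58. The 3 genes of the c ring subunit encode the same mature protein: per base of transcript Atp5g1, Atp5g2 and Atp5g3 made up 2.86%, 39.4% and 57.7% of their sum among KO tumours against 3.08%, 33.3% and 63.7% in WT tumours, with SDs of 2.35 and 7.06 for Atp5g2. Of 17 tested nuclear subunits, 10 were lower at an unadjusted p under 0.05 (15.5% of all genes), with a median of -0.61.

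**Figure D2:**
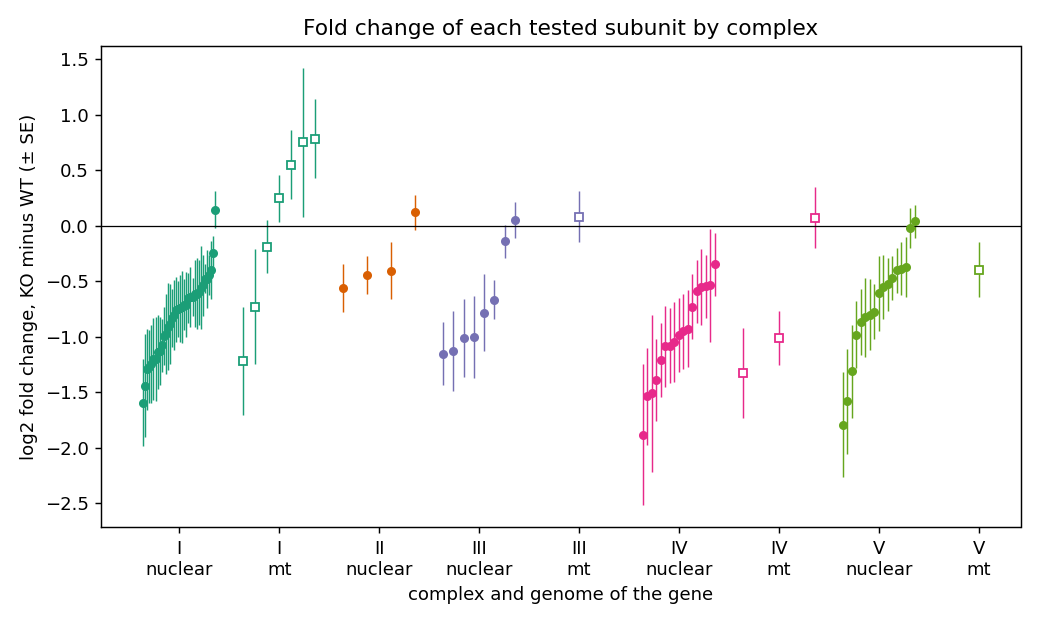
Each point is the log2 fold change (KO minus WT) of 1 tested subunit with its standard error, by complex; filled circles are nuclear genes and open squares mitochondrial genes, in order of value within each class. Most nuclear subunits lie below 0, and Ndufs1, Sdha, Uqcrc2 and Atp5a1 lie above it.

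Within the nuclear subunits the fold change went with transcript length. Over the 82, Spearman's rho of log2 fold change with principal transcript length was 0.49 as a description across genes that share the same libraries, and over 14139 tested protein-coding genes it was 0.49. The median length was 849.5 bases in subunits and 2969 in all. In transcripts of up to 600 bases the medians were -1.004 for 19 subunits and -0.85 for 150 other genes. From 600 to 800 bases they were -0.96 (20) and -0.76 (261), and from 800 to 1000 bases -0.79 (10) and -0.66 (391). From 1000 to 1500 bases they were -0.65 (14) and -0.45 (1355), and from 1500 to 2000 bases -0.48 (11) and -0.25 (1657). From 2000 to 3000 bases the order turned, at 0.080 (4) and -0.048 (3248). In the 4 subunits with an annotated principal transcript over 3000 bases (Ndufb2, Ndufab1, Sdhc and Atp5g1) the median was -0.76, against 0.18 in 6971 other genes. Short transcripts of other kinds were thus lower in KO tumours as well, and their median was 0.16 log2 units closer to 0 in the shortest class. With the length trend of each library removed (chosen after seeing the data), 5 nuclear subunits were called lower at an adjusted p under 0.05 (0.925% of all genes) and the median was -0.39.

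**Figure D3:**
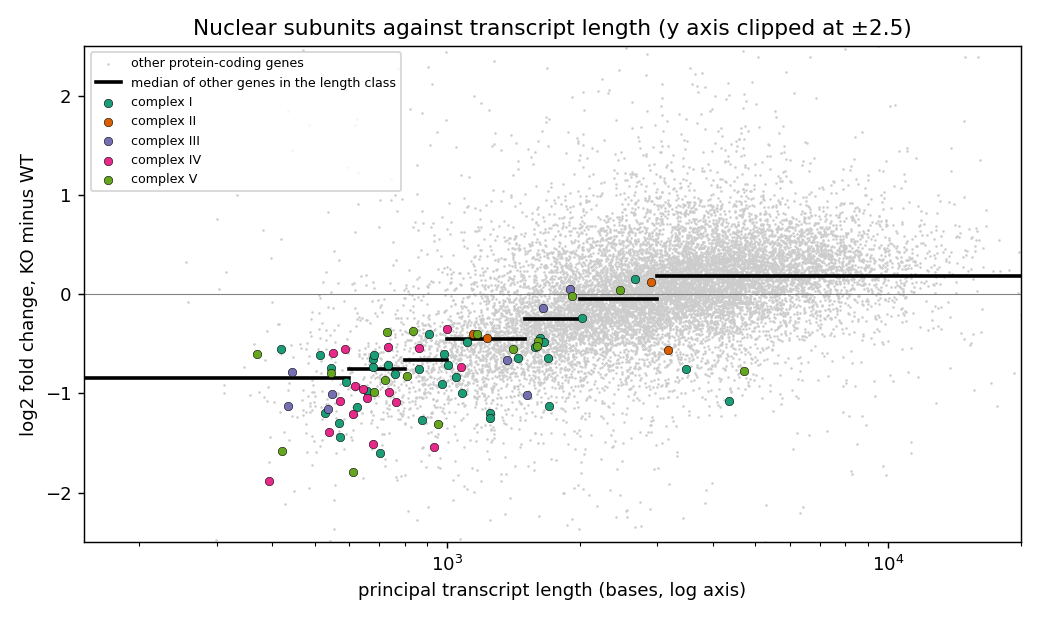
Log2 fold change against principal transcript length (log axis) for the 82 nuclear subunits, coloured by complex, with other tested protein-coding genes in grey and their medians per length class as black bars; the y axis is clipped at ±2.5. The bars run from -0.85 in the shortest class to -0.048 from 2000 to 3000 bases and 0.18 over 3000 bases. The median subunit lies below the bar in each class except 2000 to 3000 bases. Cox7a1 at -1.88 and Atp5mpl at -1.79 lie well below.

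The 13 mitochondrial mRNAs had log2 fold changes on both sides of 0. They are cut from long polycistronic transcripts, nearly all of one strand, with mt-Nd6 on the other. Of 12 tested, 3 were lower and 1 higher at an unadjusted p under 0.05, where 15.5% and 8.57% of all genes were. Their median log2 fold change was -0.058, a sign that turned in several other settings. They took 1.74% ± 0.176 of counts among KO tumours (SD, n = 6) against 1.46% ± 0.464 among WT tumours (SD, n = 5), with 0.893%, 1.40% and 1.15% in WT A, B and C and 1.88% and 1.98% in D and E. Nuclear members took 1.01% ± 0.0576 and 1.39% ± 0.441, with 1.65%, 1.93% and 1.49% in WT A, B and C. The 95% Wilson intervals of these shares were within 0.00669 percentage points and cover counting error only.

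mt-Nd5 (ENSMUSG00000064367, chromosome M, 11742 to 13565, plus strand) stood at 1767, 1676, 1590.2, 1720.2, 1651, 1258 CPM in KO tumours A to F and at 405, 457, 689, 1373, 1741 CPM in WT tumours A to E. mt-Nd5, a proton-pumping subunit of complex I, was lower in WT A, B and C than in any KO tumour, and had a log2 fold change estimated at 0.79 ± 0.36 (SE; adjusted p = 0.200 in edgeR). mt-Nd4 went the same way, at 0.55 ± 0.31, with 241 and 531 CPM in WT A and B against 944 to 1209 in KO tumours. mt-Nd1, mt-Nd2, mt-Cytb and mt-Co1, at -0.19, 0.25, 0.082 and 0.071, overlapped between the groups. mt-Co1 was the most abundant member per base of transcript, at 4572 CPM per kb in KO and 4351 in WT tumours. Cox4i1, the highest nuclear subunit on that scale in WT tumours, was at 583 and 1239 CPM per kb. mt-Nd6 stood at 332 CPM in WT C and at 25.6 to 69.6 CPM in the other tumours.

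A block of 6 neighbouring mRNAs, mt-Co2, mt-Atp8, mt-Atp6, mt-Co3, mt-Nd3 and mt-Nd4l, were at 0 to 39.3 CPM in all tumours, and together held 0.137 to 0.528% of the counts of the 13. Their values therefore describe few reads. The annotation places 7 unprocessed pseudogenes side by side on chromosome 1, 24611535 to 24616197 on the minus strand, which the table lists at up to 73.2 CPM, and the authors counted only uniquely aligned reads; whether reads were lost to that stretch was not tested. mt-Co2 (ENSMUSG00000064354, chromosome M, 7013 to 7696, plus strand) stood at 12.3, 12.4, 10.7, 14.96, 11.9, 11.97 CPM in KO tumours A to F and at 28.03, 39.3, 25.3, 12.3, 20.1 CPM in WT tumours A to E. mt-Co2 had the smallest p of complex IV, with a log2 fold change estimated at -1.01 ± 0.25 (SE; adjusted p = 0.0847 in edgeR), mt-Co3 was at -1.33 and mt-Nd3 at -1.22. mt-Atp8 did not pass the filter.

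**Figure D4:**
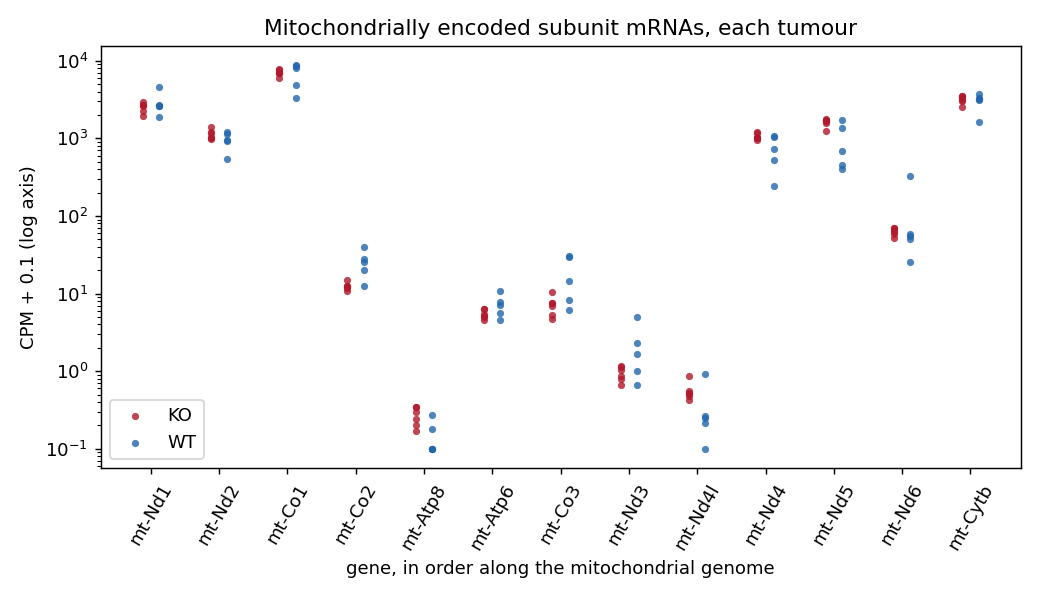
CPM + 0.1 (log axis) of the 13 mitochondrial mRNAs in each tumour, in order along the mitochondrial genome; red is KO and blue is WT. The 6 mRNAs from mt-Co2 to mt-Nd4l lie far below their neighbours in every tumour, and mt-Nd5 spreads more widely in WT than in KO tumours.

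Other genes of the pathway were read from lists. Of all genes tested with edgeR, 15.5% were lower and 8.57% higher at an unadjusted p under 0.05. The 12 members that are assembly factors had a median log2 fold change of -0.56, with 8 lower and none higher at an unadjusted p under 0.05. In a wider list of assembly factors 22 of 38 were lower (median -0.58), led by Atpaf2 at -0.74, Cmc1 at -0.996 and Sco2 at -1.28. Among electron carriers and quinone synthesis genes 7 of 18 were lower (median -0.39), led by Etfb at -1.74, Dhodh at -0.66 and Coq6 at -0.54. Mitochondrial transcription and replication genes gave 5 of 14 lower (median -0.29), led by Mterf3 at -0.51, Ssbp1 at -0.98 and Twnk at -0.62. Mitochondrial carriers and membrane proteins gave 5 of 12 lower (median -0.38), led by Phb2 at -0.86, Phb at -0.56 and Vdac3 at -0.64. Tricarboxylic acid cycle enzymes gave 1 of 13 lower (median 0.035), Suclg1 at -0.66, with Cs at 0.29 and Sucla2 at -0.26 not passing. Of the nuclear regulators 0 of 12 were lower (median 0.17), with Gabpa at 0.36, Hcfc1 at 0.62 and Myc at -0.33. With edgeR no gene of these lists was higher at an unadjusted p under 0.05, and none was called after adjustment over all genes. Of all genes to which DESeq2 gave a p, it called 3.05% lower at an adjusted p under 0.05. Those genes include many that did not pass the edgeR filter, and of the 16536 genes tested with edgeR it called 850 lower. DESeq2 called lower, at an adjusted p under 0.05, 3 of the 12 members that are assembly factors, 9 genes of the wider assembly list, 3 electron carrier and quinone genes, 3 transcription and replication genes, 2 carriers and membrane proteins, 1 enzyme of the tricarboxylic acid cycle and 0 nuclear regulators.

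Markers of the cell types of the tumour were read beside the subunits. At an unadjusted p under 0.05 in edgeR, 15.5% of all genes tested were lower and 8.57% higher. Fewer cells of a type and less RNA per cell cannot be told apart in whole tumours. The summed level of 7 carcinoma epithelium markers was 2480.4 to 4872 CPM among KO tumours against 3063 to 8037 in WT tumours, 3 of 7 being lower at an unadjusted p under 0.05. All 4 B cell markers and 2 each of 4 neutrophil and 6 macrophage markers were higher at an unadjusted p under 0.05, and 0 of 7 fibroblast and 0 of 4 endothelial markers passed in either direction. The 5 acinar markers summed to 5.88 to 217 CPM among KO tumours against 12.3 to 749.5 in WT tumours, the 4 islet markers to 0 to 65.8 against 0.0834 to 287, the 4 adipocyte markers to 42.2 to 102 against 26.9 to 184, and the 2 brown fat markers to at most 5.21 CPM in any tumour. At an unadjusted p under 0.05 the acinar marker Cela1 was lower (log2 fold change -1.96) and the adipocyte markers Plin1 (3.66) and Adipoq (2.89) were higher, with Fabp4, the other adipocyte marker tested, at -0.45. WT B, with the highest subunit levels, had the lowest epithelial sum of the WT tumours. The part of these cell types in the subunit values was not tested.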

How the data were processed

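RNA was measured in 11 tumours. As the labels and the study's methods describe, libraries were strand-specific, and the authors trimmed reads with Trimmomatic, aligned them with HISAT2 (2.1.0) to mm10 (GRCm38) and counted uniquely aligned reads per gene with HTSeq (0.11.2). The authors deposited raw counts per gene and a normalised signal, equal to the raw count divided by a single factor per tumour. Genotype and replicate letter came from sample titles. The members and lists were chosen with earlier results of these data known, and the promoter letters and the transcript length offset were chosen during the work.

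Raw counts were tested with the quasi-likelihood test of edgeR (4.0.16, R 4.3.3): TMM scaling, filterByExpr, Benjamini-Hochberg adjustment over 16536 genes at 0.05. SE is the absolute log2 fold change over the square root of F. The labels do not say which hosts shared a litter or which libraries a batch. Alternatives were DESeq2 (1.42.0), RLE and upper-quartile scaling, no filter or at least 10 counts in every tumour, removal of ribosomal RNA or mitochondrial genes, the ribosomal RNA share as a model term, per-library length trends (spline, 6 degrees of freedom) as offsets, a replicate block, and tumours left out singly or WT A, B and C together. Gene names, coordinates and transcript lengths are from GENCODE M21 on GRCm38, 1-based. Promoter sequences are from RefSeq. Named genes were all mitochondrial mRNAs, catalytic subunits, isoform pairs, the smallest p in each direction and the extreme log2 fold changes per complex, and the 3 smallest p of each list; 1 member that the rule names is not reported here. Scripts were tested on simulated counts. At these depths 3 counts equal 0.0964 to 0.184 CPM, and intervals cover counting error only.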

Additional observations from a re-analysis of the deposited data

Results flagged for a closer look

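In 112 groups of values (each named member and each share of counts, in the 6 KO or the 5 WT tumours), Dixon's test at its 95% critical value set 12 values apart from the rest of their group, in 6 tumours, and chance sets apart a value in about 5% of groups. Atp5b was highest in KO A at 1119 CPM, against 749 to 843 CPM in the other KO tumours. Atp5c1 was highest in KO A at 264 CPM, against 207 to 228 CPM in the other KO tumours. Cox6a2 was highest in WT A at 3.82 CPM, against 0.235 to 0.834 CPM in the other WT tumours. Cox6b2 was highest in WT B at 8.51 CPM, against 2.95 to 4.19 CPM in the other WT tumours. Cox8a was highest in WT B at 726 CPM, against 207 to 342 CPM in the other WT tumours. Ndufa4 was highest in WT B at 728 CPM, against 165 to 319 CPM in the other WT tumours. Sdhd was highest in KO A at 184 CPM, against 120.4 to 136 CPM in the other KO tumours. mt-Cytb was lowest in WT A at 1632 CPM, against 3094 to 3679.6 CPM in the other WT tumours. mt-Nd4l was highest in KO F at 0.766 CPM, against 0.325 to 0.455 CPM in the other KO tumours. mt-Nd4l was highest in WT E at 0.828 CPM, against 0 to 0.167 CPM in the other WT tumours. mt-Nd5 was lowest in KO F at 1258 CPM, against 1590.2 to 1767 CPM in the other KO tumours. mt-Nd6 was highest in WT C at 332 CPM, against 25.6 to 58.7 CPM in the other WT tumours.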

How the results depend on the processing

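Of 164 values recomputed under another setting, 129 kept their direction and moved by no more than the limit set for each kind (1.5 times for a count, the SD between tumours for a median or a share). Of the 99 subunits of both genomes, 94 were tested as reported, and the number tested was not the same in every setting. The number called lower at an adjusted p under 0.05 was 0 as reported. It was 3 with an exonic length offset, 5 with the transcript length offset and 28 with DESeq2. Leaving out 1 tumour gave 0 to 46, the highest without WT E and 32 without WT D. Of all genes, 0.925% were called lower with the transcript length offset, 3.05% with DESeq2, 7.46% without WT E and 3.87% without WT D. Of the 16536 genes tested with edgeR, DESeq2 called 850 lower. The number of subunits called higher ran from 0 to 2 with 1 tumour left out. It was highest without WT E, where 591 of the 16536 genes tested as reported were called higher. At an unadjusted p under 0.05, 59 subunits were lower, against 8 after adding the ribosomal RNA share to the model and 5 without WT A, B and C. With 1 tumour left out, 35 (without WT B) to 73 (without WT E) were lower. Of all 16536 genes tested, 2555 were lower as reported, 748 with the covariate and 3156 without WT E. No share over all genes is given for the fit without WT B. Without WT A, B and C, 9.01% of all genes were lower and 8.21% higher. The number of subunits higher was 1, against 0 with the covariate or either length offset. It was 17 without WT A, B and C, and 0 to 3 with 1 tumour left out, the highest without WT E. Of all 16536 genes, 1417 were higher as reported, 722 with the covariate and 2135 without WT E.

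The median log2 fold change of nuclear subunits, -0.75, moved to -0.13 with the covariate and reversed to 0.19 without WT A, B and C; with 1 tumour left out it was -0.92 to -0.45. That of mitochondrial mRNAs, -0.058, reversed to 0.067 with the covariate and 0.00929 without WT A, B and C. With the exonic and transcript length offsets it was 0.13 and 0.17. It was also positive with no filter (0.13), with DESeq2 (0.096) and without the 6 low mRNAs (0.082, chosen after seeing the data). Those 3 medians cover other sets of mRNAs, as DESeq2 was run without the expression filter. A turned sign there need not mean changed values. With 1 tumour left out the median ran from -0.21 to 0.11, the highest without WT B. Without WT A, B and C the KO minus WT difference in the percent of counts reversed from -0.388 to 0.0627 for nuclear members and from 0.283 to -0.183 for mitochondrial mRNAs; with 1 tumour left out these were -0.511 to -0.253 and 0.142 to 0.412. Under TMM-scaled CPM and the deposited normalised values they were -0.592 and -0.565 for nuclear members and 0.129 and 0.149 for mitochondrial mRNAs. The nuclear median was -0.39 with the transcript length offset. The causes were not tested.

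Letters A to E are used in each group for different animals, and same-letter tumours correlated between -0.129 and 0.109, so they were not treated as pairs. With a replicate block, 0 subunits were called lower and 0 higher, and 35 were lower and 1 higher at an unadjusted p under 0.05. No share over all genes is given beside these counts, so they are not read as a result about the subunits. The median log2 fold changes with the block were -0.57 (nuclear) and 0.064 (mitochondrial). None of the 5 WT tumours correlated best with the KO tumour of its letter.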
